A study of Mus musculus with 2 samples.

Results

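The genes described here are 9 genes of transforming growth factor beta (TGF-beta) signalling in subcutaneous mouse tumours grown from the lung cancer line Lewis lung carcinoma (LLC). They were chosen by symbol, and all 9 were found among the 19070 gene rows of both libraries. They are the ligands Tgfb1, Tgfb2 and Tgfb3, the receptors Tgfbr1 and Tgfbr2, the target genes Id1 and Id3, and the feedback inhibitors Pmepa1 and Smad7. There was 1 library from tumours treated with anti-PD-1, an antibody that blocks a receptor through which T cells are restrained, and 1 from control tumours, whose mice received an IgG2a isotype antibody. The anti-PD-1 tumours were taken 7 days after treatment, and the sample labels give no time for the control tumours. The series text calls the control cells untreated; the groups follow the sample labels. The number and age of the mice are not given in the sources used here. With 1 library per group no test was possible and no p-value is given, so every difference is between these 2 libraries and cannot be told apart from a difference between animals, preparations or collection times. All intervals are exact 95% intervals and cover counting error only.

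TGF-beta ligands are secreted in a latent form and are released by integrins and proteases. A ligand dimer binds TGFBR2, which activates TGFBR1, and the activated receptor phosphorylates SMAD2 and SMAD3, which enter the nucleus with SMAD4. The related bone morphogenetic proteins (BMPs) act through SMAD1, SMAD5 and SMAD9, whose best known targets are the Id genes; TGF-beta can also induce or repress these, depending on the cell. In tumours TGF-beta is known for its action on fibroblasts and for restraining T cells.

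Short stretches of promoter that SMAD proteins are known to bind were looked for in the sequences of the receptor and target gene with the largest ratios. RefSeq promoters (build GRCm38.p6, from 250 bases before to 50 bases after the start that RefSeq gives) were found for 5 of the 9 genes, and those of Id3 (chr4:136143572-136143871, plus strand) and Tgfbr2 (chr9:116175314-116175613, minus strand) are shown 5′ to 3′. Capitals mark CAGAC or its reverse complement GTCTG, the short core of the SMAD binding element.
Id3: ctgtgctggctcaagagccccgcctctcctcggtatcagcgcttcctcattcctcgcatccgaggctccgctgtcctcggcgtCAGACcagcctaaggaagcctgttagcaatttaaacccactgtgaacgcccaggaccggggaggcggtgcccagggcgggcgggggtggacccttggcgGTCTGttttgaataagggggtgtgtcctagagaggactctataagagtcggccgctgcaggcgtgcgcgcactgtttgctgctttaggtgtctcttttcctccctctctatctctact
Tgfbr2: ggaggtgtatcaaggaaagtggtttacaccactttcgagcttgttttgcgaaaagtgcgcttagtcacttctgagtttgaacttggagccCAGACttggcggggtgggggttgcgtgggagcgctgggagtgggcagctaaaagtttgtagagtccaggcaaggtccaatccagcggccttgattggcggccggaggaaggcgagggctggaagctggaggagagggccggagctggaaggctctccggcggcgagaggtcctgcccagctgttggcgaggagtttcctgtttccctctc
The Id3 promoter held 2 matches, at -167 and -68 relative to the RefSeq start, and the Tgfbr2 promoter held 1, at -160. The RefSeq start of Id3 used here lies downstream of the gene's start in the GRCm38 annotation given below, so this stretch falls within the annotated gene. One or more matches on either strand were found in 49.6% of the 32851 promoters listed, so such a match is common. GGCGCC, to which SMAD1 and SMAD5 are known to bind, and the full palindrome GTCTAGAC were in neither of the promoters shown, and in 11.9% and 0.213% of all promoters. A match is a description of the letters and not a measured binding site.

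The anti-PD-1 library held 9422 cells with a median of 8744 unique molecular identifiers (UMIs), and the control library 8395 cells with a median of 7473. Each cell was put in a class by its UMIs of marker genes. Tumour-marked cells (Hmga2, Igf2bp1, Igf2bp2 and Wnt7b, fetal growth genes that LLC cells express) numbered 4804 in anti-PD-1 and 3306 in control, with medians of 13912 and 17213 UMIs. A class defined by the matrix genes Dcn and Lum held 550 cells in anti-PD-1 and 379 in control. Its summed tumour markers stood at 935 and 1048 UMIs per 1000000 UMIs of the class (CPM), against 1403 and 1255 CPM in tumour-marked cells. Its other fibroblast markers (Pi16, Clec3b, Col14a1 and Mfap5) stood at 22.5 and 37.9 CPM, against 4038 and 5060 CPM in fibroblast-marked cells. Those genes define the fibroblast-marked class, which went first, so this gap follows in part from the rules. Because of its tumour markers the class is called by Dcn and Lum and given no cell type. There were 818 macrophage-marked cells in anti-PD-1 and 520 in control, 512 and 364 monocyte-marked, 97 and 262 T cell-marked, 115 and 81 natural killer (NK) cell-marked and 127 and 173 neutrophil-marked cells. Fibroblast-, endothelial-, pericyte- and dendritic-marked cells were too few for ratios, and 20.6% of anti-PD-1 cells and 31.0% of control cells stayed unassigned. The libraries shared 107 cell barcodes, 1.14% of the anti-PD-1 barcodes and 1.27% of the control barcodes. Globin RNA, a sign of blood in a sample, made up 0.00612% of the UMIs in anti-PD-1 and 0.0728% in control.

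Each of the 9 genes had its own pattern across the tumour. Tgfb1 was highest in monocyte- and macrophage-marked cells, Tgfbr2 and Pmepa1 in fibroblast-marked cells, and Id3, among the 10 classes ordered, in endothelial-marked cells, while Id1 was highest in endothelial- and neutrophil-marked cells. Levels were ordered over the 10 classes with at least 25 cells in each library, and levels of different genes were not compared, since each gene is read by its own probes. In the GRCm38 annotation the ligand genes lie at chr7:25687002-25705077 (Tgfb1), chr1:186622792-186705989 (Tgfb2) and chr12:86056745-86079041 (Tgfb3), and the receptor genes at chr4:47353222-47414931 (Tgfbr1) and chr9:116084293-116175360 (Tgfbr2). The targets and inhibitors lie at chr2:152736251-152737410 (Id1), chr4:136143497-136145755 (Id3), chr2:173224458-173276533 (Pmepa1) and chr18:75367529-75395935 (Smad7).

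**Figure D1:**
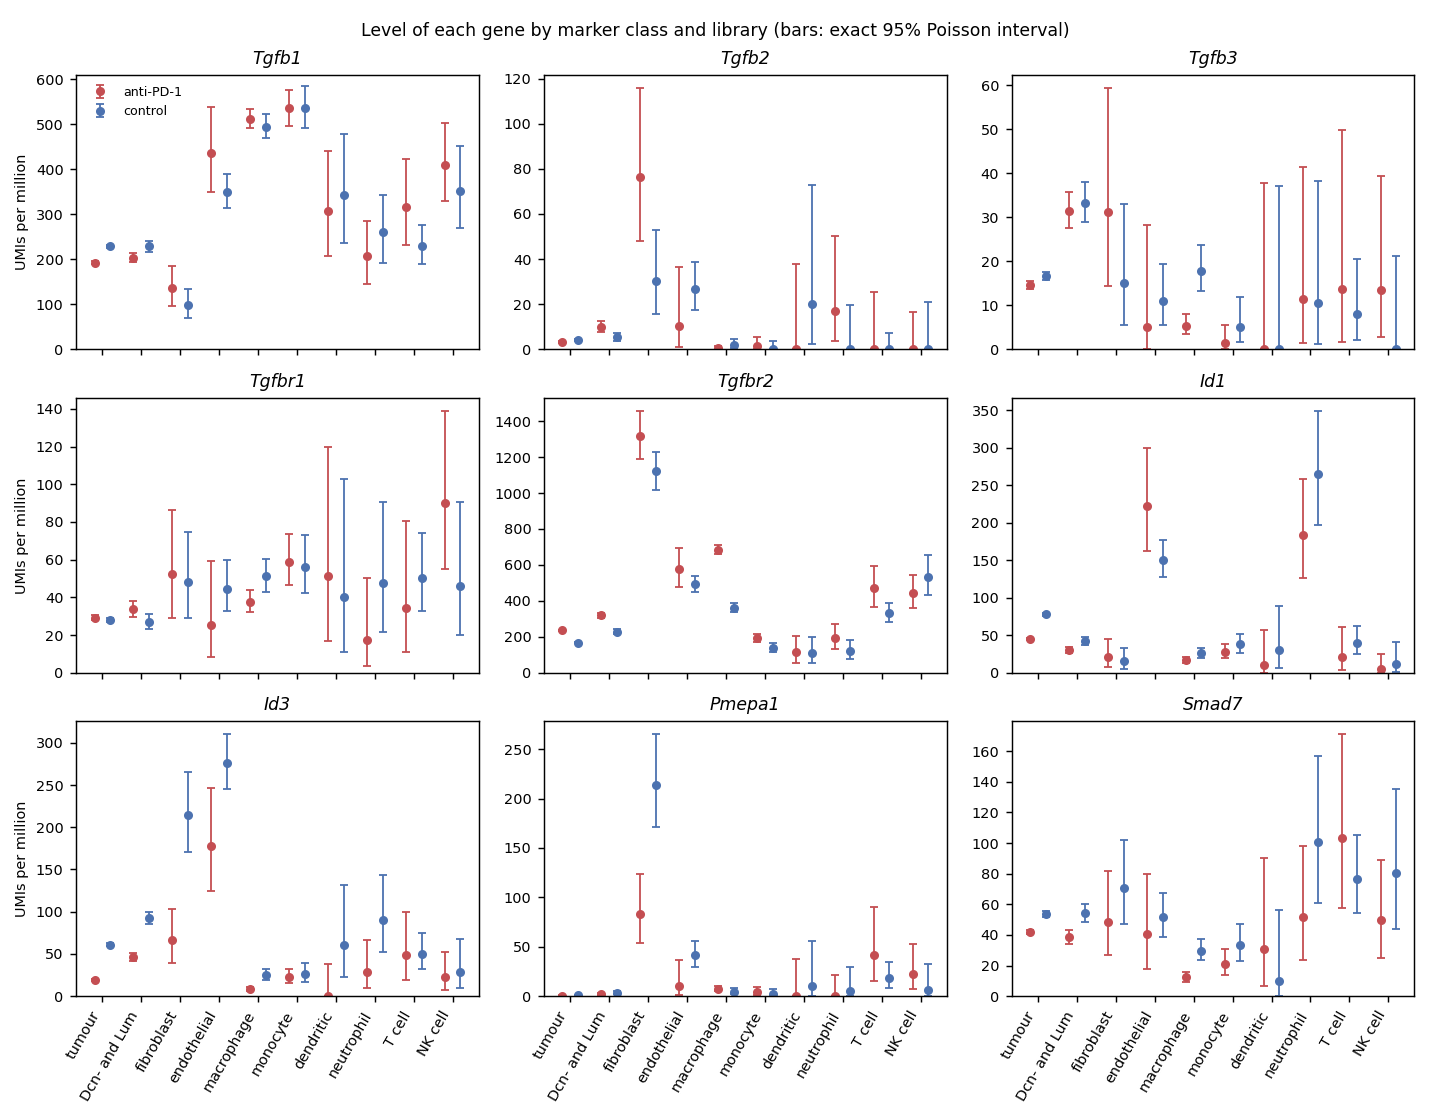
Level of each of the 9 genes (vertical axes, CPM) by marker class (horizontal axis) in the anti-PD-1 library (red) and the control library (blue); points are class sums and bars are exact 95% Poisson intervals. The level of Tgfb1 is highest in monocyte- and macrophage-marked cells, that of Tgfbr2 in fibroblast-marked cells, and the Id3 points of anti-PD-1 lie below those of control in tumour-, Dcn- and Lum-, fibroblast-, endothelial- and macrophage-marked cells.

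Tgfb1, the ligand made by most cell types, stood at 536 CPM in anti-PD-1 and 537 CPM in control in monocyte-marked cells, and at 512 and 495 CPM in macrophage-marked cells. The monocyte rule also required macrophage markers, and the intervals of these 2 classes overlapped in both libraries. In anti-PD-1 those of endothelial-marked cells (437 CPM, 349 to 539) and NK cell-marked cells (410 CPM, 330 to 504) overlapped them too. In control that of dendritic-marked cells (343 CPM, 237 to 479) overlapped that of macrophage-marked cells. Platelet markers (Ppbp, Gp9 and Itga2b) summed to 717 CPM in anti-PD-1 and 648 CPM in control in monocyte-marked cells. They summed to 572 and 631 CPM in macrophage-marked, 16.3 and 16.7 CPM in tumour-marked and 5.08 and 25.7 CPM in endothelial-marked cells. The part of platelet RNA in the Tgfb1 levels was not tested. Fibroblast-marked cells had the lowest level of the 10 classes, at 136 CPM in anti-PD-1 and 98.4 CPM in control. Tumour-marked cells had 193 CPM in anti-PD-1 and 229 CPM in control, and being the largest class they still held 64.6% and 62.7% of all Tgfb1 UMIs, against 73.3% and 67.8% of all UMIs of the libraries. Tgfb2, a ligand known from development and from mesenchymal cells, was highest of the 10 classes in fibroblast-marked cells, at 76.6 CPM (22 UMIs) in anti-PD-1 and 30.3 CPM (12 UMIs) in control. The interval overlapped that of the next class in both libraries. It had 0 UMIs in T cell- and NK cell-marked cells of both libraries, where the intervals allow up to 25.4 and 16.6 CPM in anti-PD-1 and 7.43 and 21.2 CPM in control. In the 11 pericyte-marked control cells, Tgfb2 stood at 273 CPM (31 UMIs), and in the 6 such cells of anti-PD-1 no UMI was found, where the interval allows up to 220 CPM. Among the 10 classes ordered, Tgfb3, the third mammalian TGF-beta ligand, was highest in Dcn- and Lum-marked cells, at 31.4 CPM in anti-PD-1 and 33.3 CPM in control. It was clear of the next of these classes in control only. The few pericyte-marked cells had more Tgfb3, at 59.7 CPM (1 UMI, interval 1.51 to 333) in anti-PD-1 and 88.1 CPM (10 UMIs, interval 42.3 to 162) in control.

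Tgfbr2, the ligand-binding type II receptor, stood at 1319 CPM (interval 1190 to 1459) in anti-PD-1 and 1120 CPM (1019 to 1230) in control in fibroblast-marked cells, clear of every other class in both libraries. Dendritic-marked cells were at the low end, with 113 and 111 CPM. For Tgfbr1, the type I receptor kinase, the classes spanned 17.2 to 90.2 CPM in anti-PD-1 and 27.0 to 56.1 CPM in control. Monocyte- and macrophage-marked cells lay above tumour-marked cells in both libraries, at 58.8 and 37.6 CPM against 29.2 CPM in anti-PD-1 and at 56.1 and 51.1 CPM against 27.9 CPM in control, and most other intervals overlapped.

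Id1 and Id3, inhibitors of basic helix-loop-helix factors, are known for high levels in vessels. Endothelial-marked cells had 223 CPM of Id1 in anti-PD-1 (28 cells) and 151 CPM in control (68 cells), and neutrophil-marked cells had 184 and 265 CPM, so that the order of these classes differed between the libraries. Of the 10 classes ordered, tumour-marked cells came next for Id1 in both libraries, at 45.1 and 77.9 CPM, with intervals clear of the neighbours. Id3 stood at 178 CPM in anti-PD-1 and 276 CPM in control in endothelial-marked cells, and at 66.1 CPM (19 UMIs) and 214 CPM (85 UMIs) in fibroblast-marked cells. The intervals of these classes overlapped in control (245 to 310 and 171 to 265) and not in anti-PD-1. The few pericyte-marked cells, which were too few to be ordered, had more Id3, at 418 CPM (168 to 861; 7 UMIs) in anti-PD-1 and 520 CPM (396 to 671; 59 UMIs) in control. Pmepa1, a TGF-beta target that holds SMAD2 and SMAD3 away from the receptor, was highest in fibroblast-marked cells, at 83.6 CPM (24 UMIs) in anti-PD-1 and 214 CPM (85 UMIs) in control, and clear of the next class in control only. Smad7, which blocks the type I receptor, was between 10.1 and 103 CPM over the 10 classes of both libraries, with overlapping intervals among the highest ones (T cell-, neutrophil- and NK cell-marked cells).

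Over all kept cells anti-PD-1 showed lower levels of Id3, Pmepa1 and Id1 and a higher level of Tgfbr2. Id3 stood at 22.4 CPM in anti-PD-1 and 68.0 CPM in control, a log2 ratio of -1.60 (interval -1.67 to -1.54). Pmepa1 had 1.59 CPM (183 UMIs) in anti-PD-1 and 3.64 CPM (412 UMIs) in control, a log2 ratio of -1.20, and Id1 had 42.0 and 72.8 CPM, a log2 ratio of -0.79. Tgfbr2 had 273 CPM in anti-PD-1 and 191 CPM in control, 1.43-fold higher. A gene was counted as past the threshold when its levels differed by at least 1.5-fold and it had at least 100 UMIs over both libraries. Of the 9 genes 3 were lower past this threshold and 0 higher; of the 12727 genes with that many UMIs, 10.1% were lower, 2.91% were higher and 13% passed in either direction. The median log2 ratio was -0.27 for the 9 genes and -0.03 for all genes. Class shares differed between the libraries, so the classes are given one by one.

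In tumour-marked cells the targets Id3 and Id1 and the inhibitor Pmepa1 were lower in anti-PD-1, while the ligands and receptors differed by less than 1.5-fold. Id3 was lower by 3.17-fold, Pmepa1 by 2.25-fold and Id1 by 1.73-fold, and these were the only ones of the 9 past 1.5-fold. Here 7.52% of 11755 genes were lower past the threshold, 4.27% were higher, and 11.8% passed in either direction. The median log2 ratio of the 9 genes was -0.28, against -0.00 for all genes.

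**Figure D2:**
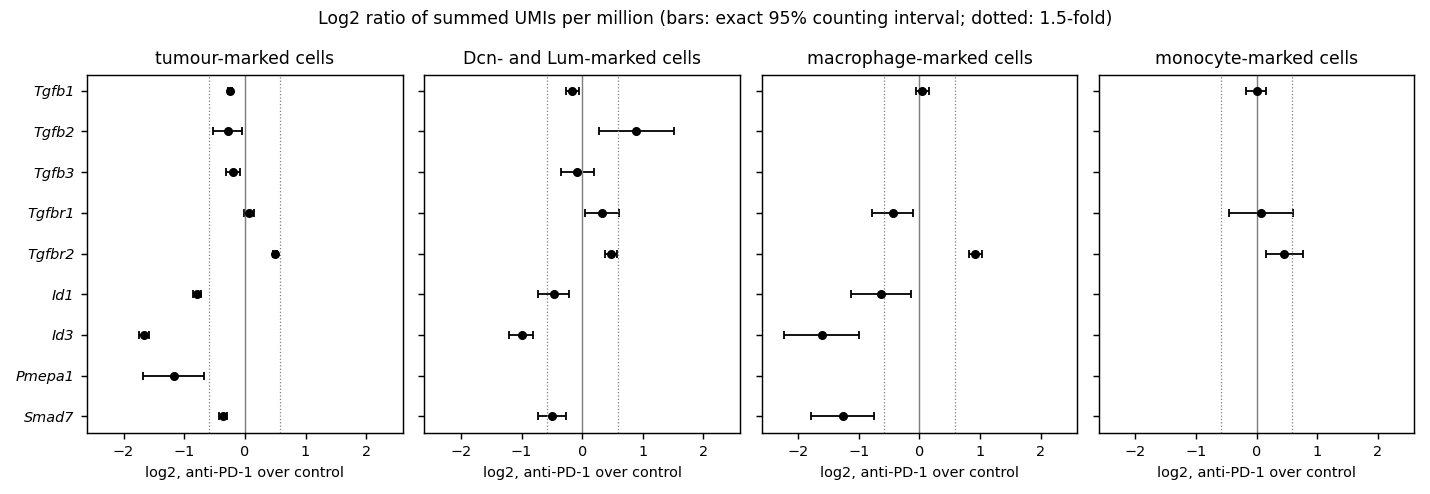
Log2 ratio of anti-PD-1 over control (horizontal axes) for each of the 9 genes (rows) in 4 marker classes (panels); points are ratios of class sums, bars are exact 95% counting intervals, dotted lines mark 1.5-fold, and genes under 100 UMIs over both libraries are left out. Id3 lies left of the dotted line at -1.66, -1.0 and -1.61 in tumour-, Dcn- and Lum- and macrophage-marked cells, and Tgfbr2 lies right of 0 in all 4 panels.

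Among the ligands, Tgfb1 had 193 CPM in anti-PD-1 and 229 CPM in control, a log2 ratio of -0.25 (-0.28 to -0.22). Tgfb2 was sparse, with 3.3 CPM (279 UMIs) in anti-PD-1 and 4.01 CPM (308 UMIs) in control, a log2 ratio of -0.28 (-0.52 to -0.05). Tgfb3 had 14.6 CPM in anti-PD-1 and 16.7 CPM in control, a log2 ratio of -0.19 (-0.31 to -0.08). All 3 ligands thus differed by less than 1.5-fold, and between 19.1% and 26.8% of all genes had a lower ratio. When every cell was thinned to 1000 UMIs the Tgfb3 ratio was 0.15, so its direction is not firm.

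The receptors differed from each other. Tgfbr1 had 29.2 CPM in anti-PD-1 and 27.9 CPM in control, and the interval of its log2 ratio of 0.07 included 0 (-0.02 to 0.15). Tgfbr2 had 236 CPM in anti-PD-1 and 168 CPM in control, a log2 ratio of 0.49 (0.46 to 0.53) or 1.41-fold, above 93.7% of all genes but short of the threshold. After thinning to 1000 UMIs per cell, 21.8% of tumour-marked anti-PD-1 cells (20.7 to 23.0) and 16.0% of control cells (14.8 to 17.3) held a Tgfbr2 UMI; without thinning the shares were 90.9% and 88.6%. No class is known to lack Tgfbr2, and monocyte-marked cells, a class with a low level, had thinned shares of 15.9% in anti-PD-1 and 10.6% in control at medians of 2177 and 2260 UMIs before thinning.

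Id3 had 19.1 CPM (1619 UMIs) in anti-PD-1 and 60.6 CPM (4650 UMIs) in control. Its log2 ratio of -1.66 (-1.75 to -1.58) was the 105th lowest of the 11755 genes. Id1 had 45.1 CPM (3821 UMIs) in anti-PD-1 and 77.9 CPM (5977 UMIs) in control, a log2 ratio of -0.79 (-0.85 to -0.73), and 4.93% of all genes had a lower ratio. Fewer anti-PD-1 cells held these RNAs. After thinning, an Id3 UMI was found in 1.89% of anti-PD-1 cells (1.53 to 2.32) and 5.47% of control cells (4.72 to 6.31), and an Id1 UMI in 4.43% and 6.84%. Without thinning the Id3 shares were 16.4% and 42.1%, and the Id1 shares 40.2% and 61.8%. In macrophage-marked cells, a class with low Id1 and Id3 levels that was taken as background, the thinned Id1 shares were 1.91% in anti-PD-1 and 1.02% in control. The thinned Id3 shares there were 1.02% (0.44 to 1.99) in anti-PD-1 and 1.84% (0.843 to 3.46) in control. The medians before thinning were 3670 and 3576 UMIs. The Id3 interval of anti-PD-1 tumour-marked cells overlapped this background and that of control tumour-marked cells did not. Tumour RNA would carry 40.2% of the Id3 level of macrophage-marked cells in anti-PD-1 and 55.7% in control. For Id1 it would carry 46.2% and 68.5%, so this background is not free of tumour signal.

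Of the feedback inhibitors Pmepa1 passed 1.5-fold and Smad7 did not. Pmepa1 was near the limit of detection in tumour-marked cells, with 0.614 CPM (52 UMIs) in anti-PD-1 and 1.38 CPM (106 UMIs) in control, a log2 ratio of -1.17 (-1.68 to -0.68). Smad7 had 41.8 CPM in anti-PD-1 and 53.6 CPM in control, a log2 ratio of -0.36 (-0.43 to -0.30), and 14.5% of all genes had a lower ratio.

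RNA of other cell types in the tumour-marked cells was measured beside these ratios. The summed fibroblast markers there reached 0.24% of their fibroblast level in anti-PD-1 and 0.21% in control; fibroblast RNA in these amounts would carry 32.6% and 32.7% of the Pmepa1 level and under 1% of the Id3 level (0.829% and 0.745%). Endothelial markers reached 0.187% in anti-PD-1 and 0.53% in control of their endothelial level, which would carry 1.74% and 2.42% of the Id3 level and 3.09% and 16.0% of the Pmepa1 level. Macrophage markers reached 1.08% and 1.5%, which would carry 3.14% and 3.24% of the Tgfbr2 level and 13.1% and 4.97% of the Pmepa1 level. T cell markers stood at 5.13 CPM in anti-PD-1 and 22.7 CPM in control and globin at 53.6 and 524 CPM; without barcodes over 0.1% globin, a choice made after seeing the data, the Id3 ratio was -1.65 and the Pmepa1 ratio -0.87. The part of shared RNA in the Pmepa1 ratio was not tested beyond these values. Cells that met the rule of another class, or held at least 1000 CPM of macrophage markers, were not tumour-marked. The other classes were picked by those same markers. These rules lower the percentages above, so the shares carried may be higher.

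**Figure D3:**
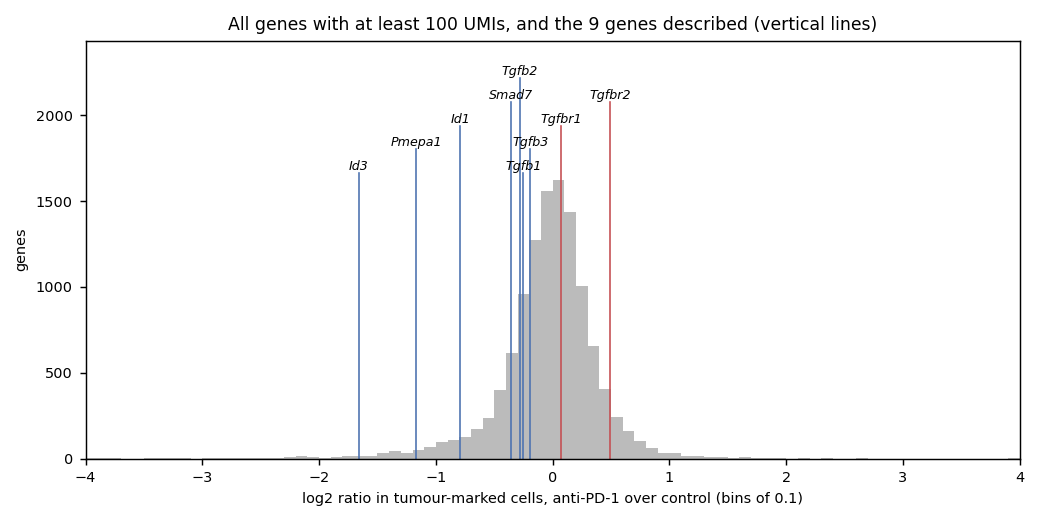
Histogram of the log2 ratio, anti-PD-1 over control, in tumour-marked cells (horizontal axis, bins of 0.1) for the 11755 genes with at least 100 UMIs (vertical axis, number of genes); vertical lines mark the 9 genes, red where higher and blue where lower in anti-PD-1, with heights set only to separate the names, and ratios beyond 4 in size are counted in the outer bins. Id3, Pmepa1 and Id1 lie in the left tail at -1.66, -1.17 and -0.79, and Tgfbr2 at 0.49 lies on the right shoulder.

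The tumour-marked cells were split by state lists (hypoxia, mitosis, interferon response and 3 lists led by Dkk2, Gria3 and Il24), each cell going to the list whose share of UMIs lay farthest above the 80th percentile of all tumour-marked cells. The make-up of the libraries differed: the Dkk2 and Col8a1 state held 958 anti-PD-1 cells (19.9% of tumour-marked cells) and 71 control cells (2.15%), and the interferon state 348 (7.24%) and 805 (24.3%). Within the states the ratios kept their direction for most of the genes. Counting cells with no high list as a state, Id3 and Id1 were lower in anti-PD-1 in 7 of 7 states, with log2 ratios of -1.94 to -0.85 and -0.93 to -0.40, Tgfb1 was lower in 7 of 7 (-0.38 to -0.05) and Tgfbr2 was higher in 7 of 7 (0.14 to 0.61).

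**Figure D4:**
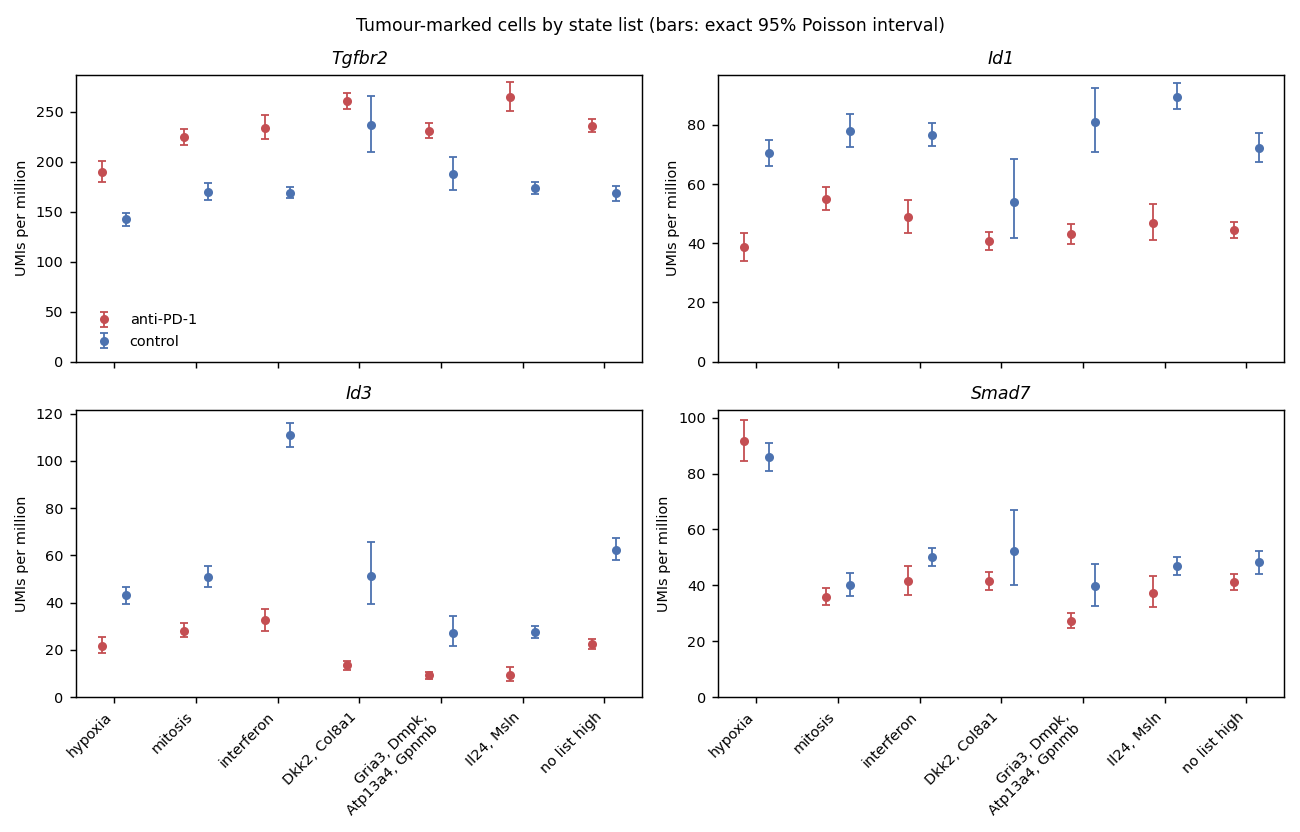
Levels of Tgfbr2, Id1, Id3 and Smad7 (vertical axes, CPM) in tumour-marked cells by state list (horizontal axis) in anti-PD-1 (red) and control (blue), with exact 95% Poisson intervals as bars. Id3 in control is highest in the interferon state at 111 CPM, against 32.6 in anti-PD-1, and Smad7 is highest in the hypoxia state, at 91.6 in anti-PD-1 and 85.8 in control.

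Id3 varied among the states at least as widely as between the libraries. It was highest in the interferon state, at 32.6 CPM in anti-PD-1 and 111 CPM in control, and low in the Il24 and Msln state, at 9.46 and 27.4 CPM, and in the Gria3 state, at 9.18 and 27.3 CPM. Id1 was more even, between 38.6 and 54.9 CPM in anti-PD-1 and between 53.8 and 89.5 CPM in control. The highest Id1 level was in the mitosis state in anti-PD-1 and in the Il24 and Msln state in control.

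Smad7 was highest in the hypoxia state of both libraries, at 91.6 CPM (84.6 to 99.0) in anti-PD-1 and 85.8 CPM (80.9 to 90.9) in control. The other states had 27.4 to 41.5 CPM in anti-PD-1 and 39.6 to 52.2 CPM in control, and the log2 ratio was 0.09 in the hypoxia state and -0.53 to -0.16 in the others. Its interval included 0 in the hypoxia, mitosis and Dkk2 and Col8a1 states. Tgfbr2 had 190 CPM in anti-PD-1 and 143 CPM in control in the hypoxia state, its lowest level in both libraries. In the Dkk2 and Col8a1 state its levels of 261 CPM in anti-PD-1 and 237 CPM in control (286 UMIs) had a ratio whose interval included 0. Tgfb3 was lower in anti-PD-1 in 6 of 7 states (-0.71 to 0.08), Tgfbr1 was higher in 5 of 7 (-0.32 to 0.33), and Pmepa1 had at most 28 UMIs in any state and library.

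The wider pathway in tumour-marked cells was described with 6 lists that hold 91 genes, the 9 among them. Of these genes 73 had at least 100 UMIs; 3 were higher past 1.5-fold in anti-PD-1 and 15 lower, and the median log2 ratio was -0.18. Without the 9 genes, 64 of 82 were measured, 3 were higher and 12 lower, and the median was -0.09; the background is the 4.27% higher and 7.52% lower given above.

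Among 23 measured genes of 29 for ligands and their release, 2 were higher and 7 lower, with a median of -0.19. The higher ones were Mmp14, a membrane protease that can release latent TGF-beta, with 647 CPM in anti-PD-1 and 393 CPM in control (0.72), and Ltbp1, which tethers latent TGF-beta to the matrix, with 360 and 233 CPM (0.63). The lowest were Bmp2, a BMP ligand (0.461 CPM in anti-PD-1 and 1.25 CPM in control, 39 and 96 UMIs, -1.44), Lrrc32, which holds latent TGF-beta on the cell surface (-1.36), Itgb3, an integrin subunit of a receptor that can bind latent TGF-beta (-1.26), and Inhbb, an activin subunit (-1.14). The others lower past the threshold were Gdf15, Inhba and Thbs1, named after their values were seen. Thbs1, an extracellular activator of latent TGF-beta, had 128 CPM in anti-PD-1 and 208 CPM in control (-0.71). Monocyte-marked cells had 11577 CPM of Thbs1 in anti-PD-1 and 12456 CPM in control, and macrophage-marked cells 2078 and 2198 CPM. In tumour-marked cells the monocyte markers summed to 39.3 CPM in anti-PD-1 and 38.0 CPM in control, against 2695 and 2325 CPM in monocyte-marked cells. The part of monocyte and macrophage RNA in the Thbs1 ratio was not tested.

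Of 12 receptors 11 were measured, 0 were higher and 1 was lower past the threshold: Acvrl1, a type I receptor best known from endothelium, with 3.24 CPM in anti-PD-1 and 6.31 CPM in control (-0.96). Acvrl1 and Lrrc32 are also made by endothelium, whose markers, given above, were lower in the anti-PD-1 tumour-marked cells. Acvrl1 also stood at 116 CPM in anti-PD-1 and 189 CPM in control in macrophage-marked cells, and at 169 and 180 CPM in monocyte-marked cells. The part of RNA from these cell types in the Acvrl1 and Lrrc32 ratios was not tested. All 6 Smads that carry the signal were measured and none passed 1.5-fold, with log2 ratios from -0.28 for Smad3 to 0.11 for Smad2. Of 18 inhibitors 13 were measured and 2 were lower, Pmepa1 and Bambi, a decoy receptor (0.437 CPM in anti-PD-1 and 0.912 CPM in control, 37 and 70 UMIs, -1.06).

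Of 22 TGF-beta targets 19 were measured; 1 was higher and 4 lower, with a median of -0.36. The higher one was Itgae, an integrin subunit best known from T cells (0.839 CPM in anti-PD-1 and 0.495 CPM in control, 71 and 38 UMIs, 0.76). The lower ones were Acta2, smooth muscle actin, with 4.04 CPM in anti-PD-1 and 18.2 CPM in control (-2.17), Ccn2, a matrix growth factor, with 5.09 and 12.8 CPM (-1.33), Pmepa1, and Tagln, an actin-binding protein of smooth muscle (-0.95). Acta2 and Tagln are also made by pericytes, whose markers summed to 1.26 CPM in anti-PD-1 and 2.37 CPM in control in the tumour-marked cells; their part was not tested. Fn1, fibronectin, had 890 CPM in anti-PD-1 and 796 CPM in control (0.16), and Tgfbi, a matrix protein named for its induction by TGF-beta, had 157 and 202 CPM (-0.37). Neither passed the threshold, and both were named after their values were seen. Tgfbi stood at 5714 CPM in anti-PD-1 and 4495 CPM in control in monocyte-marked cells, whose part in its ratio was not tested.

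Of 13 BMP targets 8 were measured, 0 were higher and 3 lower (Id3, Bambi and Id1), with a median of -0.39. Id2, the third Id gene measured, did not follow Id1 and Id3 in tumour-marked cells, with 32.4 CPM in anti-PD-1 and 31.7 CPM in control, a log2 ratio of 0.03 (-0.05 to 0.11).

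**Figure D5:**
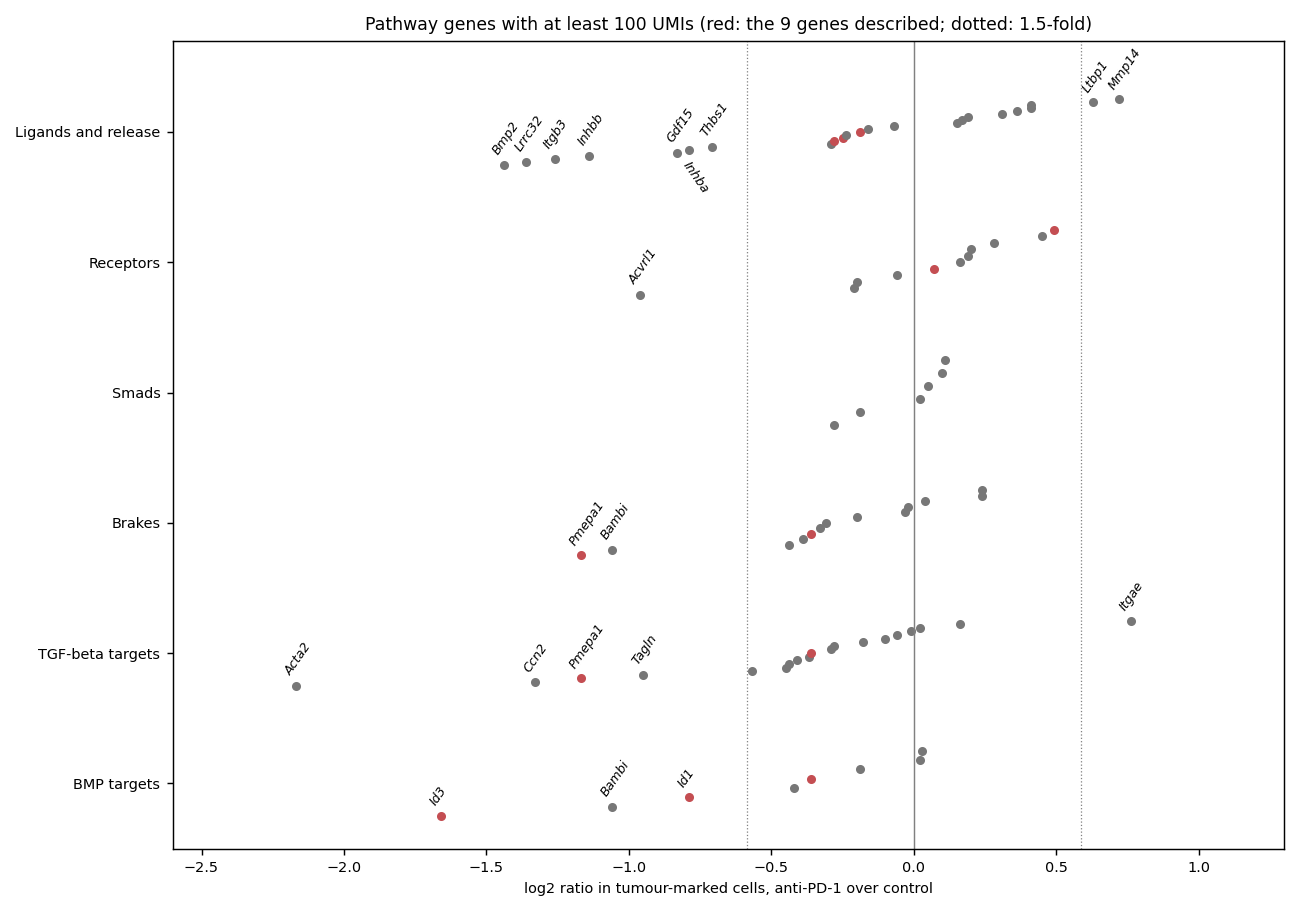
Log2 ratio, anti-PD-1 over control, in tumour-marked cells (horizontal axis) of every pathway gene with at least 100 UMIs, by list (rows; genes in 2 lists appear in both); red points are the 9 genes, grey points the others, dotted lines mark 1.5-fold, and the genes beyond them are named. The 6 Smads lie between -0.28 and 0.11, while Acta2, Id3 and Bmp2 lie farthest to the left.

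In Dcn- and Lum-marked cells Id3 was lower in anti-PD-1 and Tgfb2 higher. Id3 had 46.1 CPM in anti-PD-1 and 92.3 CPM in control, a log2 ratio of -1.0 (-1.20 to -0.81). Tgfb2 had 9.89 CPM (73 UMIs) in anti-PD-1 and 5.36 CPM (35 UMIs) in control, a log2 ratio of 0.88 (0.28 to 1.51). The shares of cells with a Tgfb2 UMI were close, at 9.45% in anti-PD-1 and 8.44% in control without thinning. After thinning they were 0.727% (4 cells) and 0.792% (3 cells), so a clear rise in the share of cells was not seen. Of the 8 genes measured 1 was higher and 1 lower past 1.5-fold, and of 9907 genes 1.79% were higher, 3.81% lower and 5.59% either. Fibroblast RNA, judged by its markers, would carry 4.31% of the Tgfb2 level in anti-PD-1 and 4.22% in control. Cells that met the fibroblast rule were kept out of this class, which lowers these shares.

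The other genes were closer. Tgfbr2 had 319 CPM in anti-PD-1 and 229 CPM in control (0.48), Tgfbr1 had 33.7 and 27.0 CPM (0.32), Id1 had 30.2 and 41.8 CPM (-0.47), and Smad7 had 38.4 and 54.1 CPM (-0.50). Tgfb1 (-0.17) and Tgfb3 (-0.08) differed least. Dcn and Lum themselves, which set the class, summed to 2381 CPM in anti-PD-1 and 1572 CPM in control. With classes taken from clusters instead of markers, Tgfbr2 in this class had a ratio of 0.80 and Id1 one of -1.08, both past 1.5-fold, as were Tgfbr2 in thinned cells (0.70) and Id1 without the deepest cells (-0.60).

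In macrophage-marked cells Tgfbr2 was higher in anti-PD-1, the interval of the Tgfb1 ratio included 0, and Id3, Smad7 and, less firmly, Id1 were lower at few UMIs. Tgfbr2 had 685 CPM (661 to 710; 3040 UMIs) in anti-PD-1 and 362 CPM (339 to 386; 950 UMIs) in control. The log2 ratio was 0.92 (0.81 to 1.03), or 1.89-fold, above 99.1% of 8564 genes. After thinning, 38.0% of anti-PD-1 macrophage-marked cells (34.6 to 41.5) and 23.3% of control ones (19.6 to 27.3) held a Tgfbr2 UMI, against 70.7% and 56.5% without thinning. Tgfb1 had 512 CPM in anti-PD-1 and 495 CPM in control, with a log2 ratio of 0.05 (-0.05 to 0.15).

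Id3 had 8.11 CPM (36 UMIs) in anti-PD-1 and 24.8 CPM (65 UMIs) in control, a log2 ratio of -1.61 (-2.24 to -1.0). Smad7 had 12.4 CPM (55 UMIs) in anti-PD-1 and 29.7 CPM (78 UMIs) in control, a log2 ratio of -1.26 (-1.79 to -0.75), and Id1 had 16.7 CPM (74 UMIs) and 25.9 CPM (68 UMIs), a log2 ratio of -0.64 (-1.13 to -0.14). Of 6 genes measured 1 was higher and 3 were lower past 1.5-fold, and of all genes 3% were higher, 5.37% lower and 8.37% either. Id1 did not reach the threshold with median-of-ratios scaling (-0.58), with classes from clusters (-0.47) or without the globin barcodes (-0.50). The thinned shares of Id1, given above, ran the other way, at 15 of 787 anti-PD-1 cells and 5 of 490 control cells, so the direction of Id1 in macrophage-marked cells is not firm.

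Tumour RNA was present in these cells. Tumour markers stood in macrophage-marked cells at 17.0% of their tumour level in anti-PD-1 and 22.8% in control, and tumour RNA in these amounts would carry 40.2% and 55.7% of the Id3 level there, 57.5% and 41.1% of the Smad7 level, 46.2% and 68.5% of the Id1 level, and 5.88% and 10.5% of the Tgfbr2 level. How far it makes up the lower Id3, Id1 and Smad7 was not tested beyond these values. Cells that met both the macrophage and the tumour rule were left out from 1000 CPM of tumour markers, which lowers these percentages. The macrophage markers themselves summed to 23028 CPM in anti-PD-1 and 18671 CPM in control, and 32.9% and 42.1% of the cells lay within 1.5-fold of the minimum for the class.

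Tgfbr1 in macrophage-marked cells had 37.6 CPM in anti-PD-1 and 51.1 CPM in control, a log2 ratio of -0.44 (-0.78 to -0.10), which is below 0 where that of Tgfbr2 is above it. Tgfb2, Tgfb3 and Pmepa1 had under 100 UMIs; Pmepa1 had 7.43 CPM (33 UMIs) in anti-PD-1 and 4.57 CPM (12 UMIs) in control, and Tgfb3 had 5.41 CPM (24 UMIs) and 17.9 CPM (47 UMIs). Of the 91 pathway genes 50 were measured in this class; 1 was higher and 9 were lower past 1.5-fold, with a median log2 ratio of -0.09, against the 3% higher and 5.37% lower of all genes. Among ligands and release 0 were higher and 1 lower of 13, among receptors 1 higher and 1 lower of 11, among Smads 0 of 5 in either direction, among inhibitors 0 higher and 1 lower of 8, and among TGF-beta targets 0 higher and 4 lower of 12. All 4 of the 13 BMP targets that were measured were lower past 1.5-fold, namely Id3, Smad7, Id1 and Id2, the last named after its values were seen, with 81.5 CPM in anti-PD-1 and 144 CPM in control (-0.82). Smad7 is counted among inhibitors, TGF-beta targets and BMP targets alike, so the counts by list overlap. Id3, Smad7 and Id1 are among the genes described, and their limits in this class, given above, hold here too.

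In the remaining immune cells none of the measured genes passed 1.5-fold, although Tgfbr2 in monocyte-marked cells did without the deepest cells (0.59), and Tgfb1 in T cell-marked cells did with at least 1000 genes per barcode (0.61) or doubled marker UMIs (0.67). Monocyte-marked cells had 191 CPM of Tgfbr2 in anti-PD-1 and 140 CPM in control, a log2 ratio of 0.45 (0.15 to 0.76), while Tgfb1 had 536 and 537 CPM and Tgfbr1 58.8 and 56.1 CPM. These 3 were the genes measured, and 8.45% of all genes there passed in either direction. T cell-marked cells had 469 CPM of Tgfbr2 in anti-PD-1 (68 UMIs) and 334 CPM in control (166 UMIs), a log2 ratio of 0.49 (0.06 to 0.90), and 317 and 230 CPM of Tgfb1, a ratio whose interval included 0 (-0.06 to 0.97). NK cell-marked cells had 446 CPM of Tgfbr2 in anti-PD-1 and 535 CPM in control (-0.26, interval -0.69 to 0.16), and 410 and 351 CPM of Tgfb1 (0.22, interval -0.26 to 0.72). The shares of all genes past 1.5-fold were 26.8% in T cell-marked and 13.4% in NK cell-marked cells, and in neutrophil-marked cells 0 of the 9 genes had 100 UMIs. Tgfbr2 was thus higher in anti-PD-1 in 5 of the classes with a ratio, and in NK cell-marked cells the ratio was below 0 with an interval that included 0; whether the classes differ could not be tested with 1 library per group.

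The genes whose levels were most like those of the 9 across cell classes were found by Pearson correlation of log2(CPM + 1) over 14 sums (7 classes in both libraries) among 12718 genes. The points share libraries and depth, so the correlations are descriptions. The classes used leave out fibroblast-, endothelial-, pericyte- and dendritic-marked cells, among which Tgfb2, Tgfbr2, Id3 and Pmepa1 had their highest levels. Several sums of Tgfb2, Tgfb3 and Pmepa1 held few or 0 UMIs, such as Tgfb2 in T cell- and NK cell-marked cells of both libraries. Counting noise therefore enters their correlations. Tgfb1 was most like B4galt6 (r = 0.97), Cyba (0.96) and Ctsc (0.92). Tgfb2 was most like Crabp2 (0.95), Daam2 (0.94) and Clcn1 (0.92), and Tgfb3 most like Pfkm (0.92), Maoa (0.91) and Tspan9 (0.91).

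Among the receptors, Tgfbr2 was most like Fchsd2 (0.92), Gramd1b (0.85) and Saraf (0.84), and Tgfbr1 most like Nkiras1 (0.89), Gpr160 (0.88) and Trim36 (0.87). Id1 was most like Txnrd1 (0.94), Ppard (0.93) and Alkbh5 (0.93). Id3 had the weakest likeness of the 9 genes, with Atp5d (0.85), Tmsb10 (0.83) and Mrfap1 (0.81) closest. Pmepa1 was most like Tapbpl (0.93), Skic2 (0.93) and Rsbn1l (0.91), and Smad7 most like Tsg101 (0.92), Stk16 (0.91) and Ago2 (0.91). None of the 9 genes was allowed in the others' lists.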

How the data were processed

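Single-cell RNA libraries were made with a Flex kit of 10x Genomics, a probe-based assay, per the labels' protocols, which also name a 3' protocol. The deposited values are counts of UMIs per gene and barcode, not normalized, per the file headers. Per the submitters' processing notes, Cell Ranger 7.0.1 and mm10 were used, while the matrix headers give Cell Ranger 9.0.1. The anti-PD-1 library had 9423 barcodes and 115407230 UMIs and the control library 8441 barcodes and 113268618 UMIs. No barcode had under 494 UMIs in anti-PD-1 or under 493 in control, so shallower barcodes were not analysed here.

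Barcodes under 300 genes or over 20% mitochondrial UMIs were left out. A cell joined a class when its marker UMIs reached a minimum count and CPM. As mixed, 342 anti-PD-1 and 558 control barcodes were left out of the classes, which stands for doublet removal. They met more than 1 rule other than the tumour rule, or met the tumour rule with macrophage markers of at least 1000 CPM. Barcodes that met the tumour rule and 1 other were mixed too, from 1000 CPM of tumour markers. Those of the Dcn and Lum rule were kept, so barcodes that met the tumour rule and another were not all left out. Macrophage went before monocyte, and fibroblast before Dcn and Lum. No doublet caller was run. The markers were Hmga2, Igf2bp1, Igf2bp2 and Wnt7b for tumour cells, Dcn and Lum, C1qa, C1qb, C1qc, Mrc1, Adgre1 and Csf1r for macrophages, and Ccr2, Chil3 and F13a1 for monocytes. Monocyte-marked cells also needed at least 2000 CPM of the macrophage markers. The class minimums were set after looking at the data. UMIs were summed per class and library and scaled to 1000000 (CPM). Ratios were given for the 7 classes with at least 50 cells in each library and for genes with at least 100 UMIs, with exact Poisson or conditional binomial intervals at 95% and Clopper-Pearson intervals for shares. Shares came from cells thinned to 1000 UMIs, leaving out shallower cells (31 anti-PD-1 and 30 control macrophage-marked cells, and 0 tumour-marked cells). Probe efficiency bears on levels compared between genes, which were not compared. The 9 genes, the gene lists, the states and the markers were chosen with earlier results of these data known. From the lists, up to 4 genes per direction with the largest ratios past 1.5-fold in tumour-marked cells were named, and 3 genes of most like pattern for each of the 9. The scripts were tested on simulated data. Python 3.11.15, numpy 2.4.6, scipy 1.17.1, pandas 2.3.3 and leidenalg 0.10.2 were used.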

Additional observations from a re-analysis of the deposited data

How the results depend on the processing

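No paired analysis was possible because each group has 1 library. The alternatives were no filter on barcodes, at least 1000 genes per barcode, median-of-ratios scaling, cells thinned to 1000 UMIs, leaving out cells over 3 times the median UMIs of their class, doubled marker UMIs, classes from Leiden clusters, at least 30 UMIs behind a ratio, a 2-fold threshold, equal weights for tumour states and, chosen after seeing the data, leaving out barcodes over 0.1% globin. In tumour-marked cells 3 of the 9 genes were past 1.5-fold under each alternative that kept that threshold, and 2 were past 2-fold. With thinned cells 7 genes were measured and the 3 past the threshold were Id3 (-1.46), Id1 (-0.68) and Smad7 (-0.62), since Pmepa1 fell under 100 UMIs. Over these alternatives the tumour log2 ratio lay between -1.70 and -1.45 for Id3, between -0.83 and -0.68 for Id1, between -1.46 and -0.87 for Pmepa1 and between 0.39 and 0.55 for Tgfbr2. In macrophage-marked cells the count of 4 was 1 with thinned cells (2 genes measured), 1 without cells over 3 times the median UMIs (3 measured), 2 with Leiden classes (5 measured), 2 at 2-fold and 2 without the globin barcodes (5 measured). Fewer genes reached 100 UMIs in 4 of these, and Id3, with 101 UMIs as reported, dropped out in each of them. The Tgfbr2 ratio there lay between 0.85 and 1.12. No single-gene ratio that was past 1.5-fold changed sign under an alternative in which it was still measured. In thinned cells, Id1 in macrophage-marked cells and Tgfb2 in Dcn- and Lum-marked cells had under 100 UMIs and so no ratio. Their thinned shares of cells, from few cells, ran the other way. Depth limits Pmepa1 in all classes and Id1, Id3 and Smad7 in macrophage-marked cells.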
